A study of Mus musculus with 9 samples.

Results

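Immediate early and serum response genes are the transcripts that a cell makes within minutes of meeting serum or a growth factor. The set described here holds 44 genes, namely the AP-1 subunits of the FOS and JUN families, the EGR, NR4A and KLF factors, SRF, MYC and other nuclear proteins, small MAF proteins, RNA decay factors, inhibitors of growth factor signalling, EGF receptor ligands, and a few GTPase and cytoskeletal genes. They were taken by name from a list, and all 44 were found among the 53700 gene IDs of the count table. Each of the 44 also passed the filter on low counts, which left 18415 genes in the fit.

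In resting cells many immediate early genes, Fos and Egr1 among them, are nearly silent, but this does not hold for the whole set. Serum activates the ERK pathway, which acts on the transcription factor SRF at CArG boxes through its ternary complex partners. SRF also works with the actin-sensing coactivators of the MRTF family. Calcium and cyclic AMP act through CREB at cyclic AMP response elements, here called CREs. Many of the transcripts are short-lived, and AU-rich elements in the 3′ ends of a part of them recruit decay factors such as Zfp36. Part of the products switch the pathway off again. In myoblasts this programme belongs to growth in serum, and its fading accompanies withdrawal from the cell cycle.

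RNA was sequenced from C2C12 cells, a mouse myoblast line, in 9 libraries of 3 groups of 3. The cells were grown in DMEM/F12 with 10% fetal bovine serum and moved to OPTI-MEM, a reduced-serum medium, 12 h after plating. Val+PA wells received the branched-chain amino acid valine (0.45 mM, 24 h) and the saturated fatty acid palmitic acid (75 µM, 12 h). Valine wells received valine alone (0.45 mM, 36 h). The labels state 12 h of starvation for all 3 groups. Control wells had neither addition and were harvested 12 h into starvation, while the stated hours of valine, 24 and 36, are longer than that. OPTI-MEM is common to all groups, but the time in it is not. Each group was 1 plate of 6 wells, of which 3 were drawn at random. Plate, time in OPTI-MEM and treatment therefore cannot be told apart between Control and the other groups, and each p-value is set against variation between wells of a single plate.

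Library totals ran from 26750226 to 35976589 counts, and 1 count was worth 0.0271 to 0.0403 CPM (read counts scaled by the library total after TMM, which evens out composition between libraries). The 10 myoblast markers summed to 3522 to 5520 CPM in Val+PA, 3677 to 3874 CPM in Valine and 2510 to 2855 CPM in Control, with none at 0. At an edgeR adjusted p below 0.05, 4 of the 10 were higher and 2 lower than Control in Val+PA, and likewise in Valine. Des alone averaged 2400 ± 680 CPM in Val+PA and 1233 ± 134 CPM in Control. Sdc4 fell to 68.6 ± 4.3 CPM in Valine against 208 ± 41.7 CPM in Control. The 5 adipocyte markers stayed at or below 0.245 CPM in sum in every library. Markers of myotubes, the fused muscle cells, summed to 55.2 to 78.1 CPM in Val+PA, 75.6 to 82.3 CPM in Valine and 16.9 to 19.5 CPM in Control. Of these 8 markers 7 were called higher and 1, Tnnt2, lower in both comparisons with Control. Tnnt2 averaged 5.36 ± 0.324 CPM in Val+PA, 4.06 ± 0.714 CPM in Valine and 9.65 ± 0.785 CPM in Control. The 8 markers of fibroblasts and fibro-adipogenic progenitors, many of which a myoblast line also makes, summed to 2954 to 4169 CPM in Val+PA, 3242 to 3343 CPM in Valine and 1149 to 1728 CPM in Control. The part of these shifts in the results was not tested, and in bulk RNA fewer cells of a type and less RNA per cell cannot be told apart. Smooth muscle and pericyte markers, part of which SRF drives, summed to 455 to 577 CPM in Val+PA, 532 to 553 CPM in Valine and 599.9 to 659.6 CPM in Control. Acta2 made up most of that sum, with 415 ± 39.1 CPM in Val+PA and 552 ± 39.1 CPM in Control. Of the 4 tested, 1 was called higher and 1 lower in each comparison with Control. The lower gene was Acta2 in Val+PA and Pdgfrb in Valine. The higher gene averaged under 1 CPM over the libraries, with a log2 fold change of 4.62 in Val+PA and 5.43 in Valine. Endothelial markers summed to at most 3.49 CPM and immune markers to at most 7.49 CPM in any library. Val+PA 2 and Control 3 were unlike the libraries they were grouped with, with a chi-square per gene of 51.4 to 118 against their own group, where the other pairs gave 3.99 to 20.1.

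Most of the 44 genes were lower in Valine than in Control. In Valine against Control 26 were lower (59.1%) and 5 higher (11.4%) at an adjusted p below 0.05 in edgeR's quasi-likelihood test, while 21.1% of all genes tested were lower and 20.8% higher. The median log2 fold change was -0.65 over the 44 genes and -0.0049 over all genes tested. In Val+PA against Control 16 were lower (36.4%) and 7 higher (15.9%), where 18.8% of all genes tested were lower and 20.4% higher. The median there was -0.33 over the 44 genes and -0.0018 over all genes tested. Called and changed at least 2-fold were 6 lower and 2 higher genes in Val+PA, beside 6.55% and 9.11% of all genes tested. In Valine these were 15 lower genes and 1 higher gene, beside 7.15% and 9.58% of all genes tested. Without Val+PA 2 and Control 3, 23 were lower and 10 higher in Val+PA, beside 24.6% and 25.2% of all genes tested. The same step gave 28 lower and 9 higher in Valine, beside 27.2% and 27% of all genes tested. Both comparisons share the Control libraries, so their counts are not independent.

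**Figure D1:**
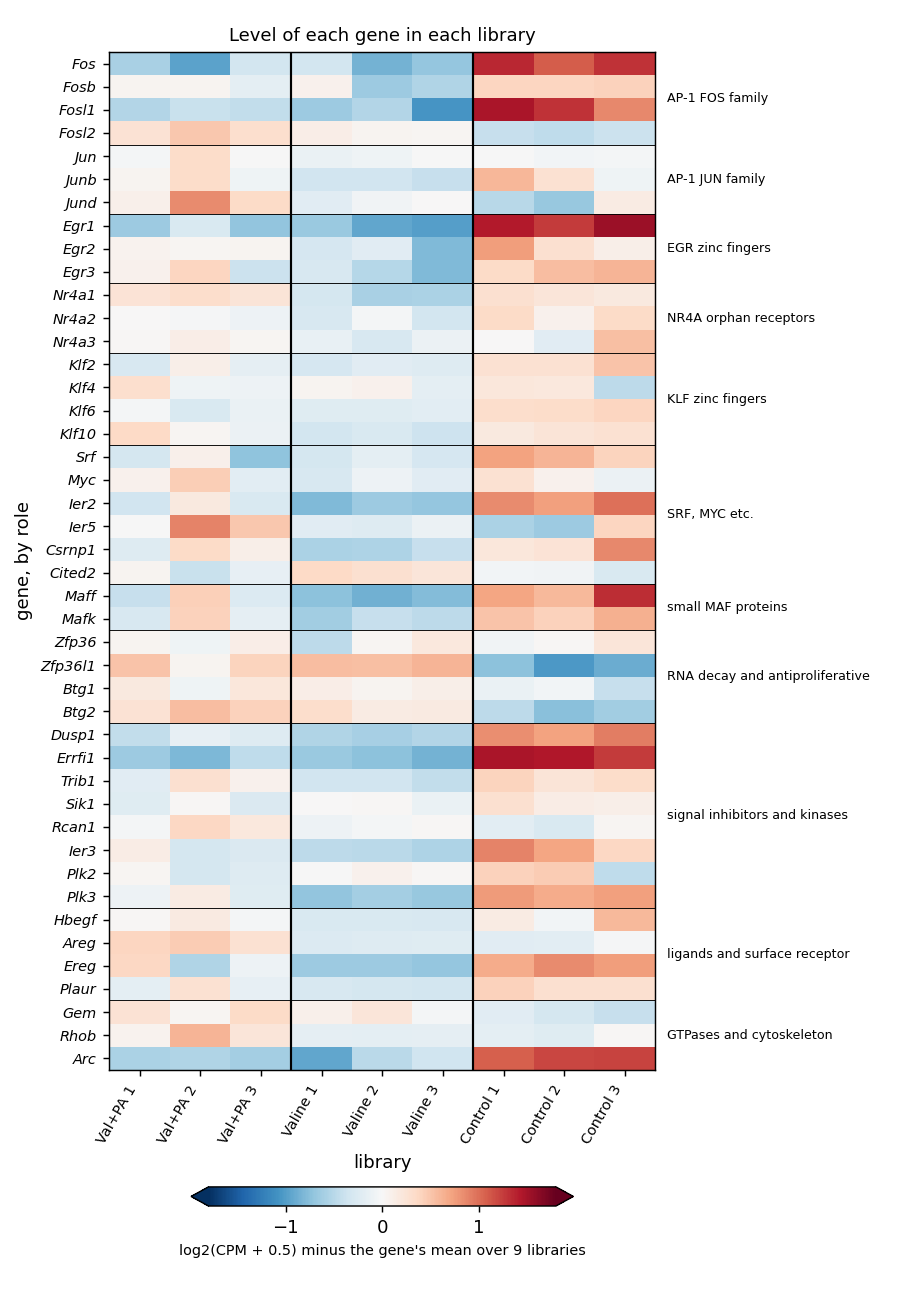
Level of each of the 44 genes (rows, ordered by role) in each of the 9 libraries (columns, with Val+PA left, Valine in the middle and Control right), as log2(CPM + 0.5) minus the mean of that gene over the 9 libraries. Fos, Fosl1, Egr1, Errfi1, Dusp1, Ier2 and Arc are above their mean in the 3 Control libraries and below it in most others, while Fosl2, Zfp36l1 and Btg2 show the opposite colours.

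**Figure D2:**
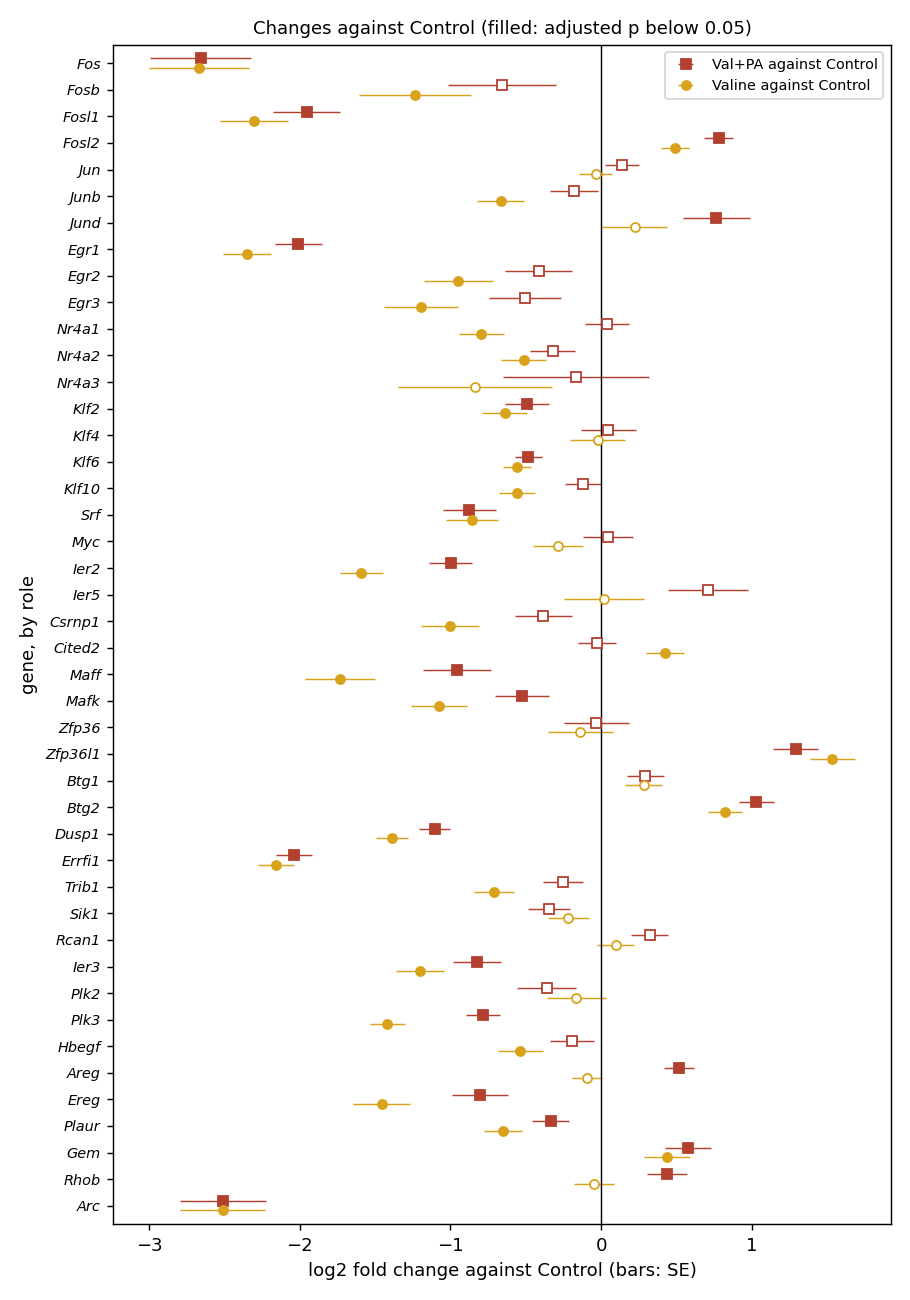
Log2 fold change of each gene against Control, with red squares for Val+PA, yellow circles for Valine, bars for the SE and filled symbols for an adjusted p below 0.05. The 26 filled circles left of 0 and the 16 filled squares left of 0 are the genes counted as lower, and Fos, Arc, Egr1, Errfi1 and Fosl1 lie farthest to the left.

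Promoter windows from RefSeq (GRCm38.p6), each running from 250 bases before to 50 bases after a start site, were matched for 32 of the 44 genes. Bases outside the windows and genes without a window were not searched. A gene not named below may therefore still carry the site in question. The CArG box that SRF binds was present in the windows of 3 of these 32 genes (9.38%) and of 488 of all 27025 genes with a window (1.81%). Those 3 genes were Egr2, with 2 distinct boxes at different start sites, Srf itself, with 2 boxes in the same window, and Zfp36. The stretches below show them, with the CArG box in capitals, since this is the element through which SRF binds DNA.
Egr2 chr10:67537469-67537528 (plus strand): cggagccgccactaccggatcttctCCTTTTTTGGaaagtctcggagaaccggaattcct
Egr2 chr10:67537772-67537831 (plus strand): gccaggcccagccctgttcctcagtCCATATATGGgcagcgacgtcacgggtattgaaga
Srf chr17:46556200-46556259 (minus strand): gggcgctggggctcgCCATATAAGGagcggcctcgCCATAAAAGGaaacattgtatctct
Zfp36 chr7:28379252-28379311 (minus strand): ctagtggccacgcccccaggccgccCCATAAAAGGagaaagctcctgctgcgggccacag

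The palindromic CRE, TGACGTCA, was found in 7 of the 32 genes (21.9%) and in 549 of the 27025 genes (2.03%). It lay in the windows of Areg, Btg2, Dusp1, Errfi1, Maff, Plk2 and Rcan1, of which Dusp1, Errfi1 and Maff fell, Btg2 rose and Areg, Plk2 and Rcan1 were not called in Valine against Control. Of the 7, 4 are printed because the results turn on them, with the CRE in capitals.
Areg chr5:91139512-91139571 (plus strand): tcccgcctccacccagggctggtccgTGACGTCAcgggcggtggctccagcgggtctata
Dusp1 chr17:26508582-26508641 (minus strand): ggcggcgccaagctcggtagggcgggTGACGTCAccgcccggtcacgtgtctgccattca
Errfi1 chr4:150854993-150855052 (plus strand): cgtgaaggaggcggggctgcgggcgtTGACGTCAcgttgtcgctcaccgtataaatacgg
Maff chr15:79347460-79347519 (plus strand): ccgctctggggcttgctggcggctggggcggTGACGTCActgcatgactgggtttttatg

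Other motifs were counted in the same windows on both strands. The EGR site GCGNGGGCG was in 12 of the 32 genes (37.5%) against 6.27% of all genes with a window, the GC box GGGCGG in 29 (90.6%) against 38.2%, and the E-box CACGTG in 8 (25%) against 8.09%. The AP-1 site TGANTCA was in 4 genes (12.5%) against 8.97%, and the TATA box TATAAA in 8 (25%) against 15.7%. EGR sites and GC boxes are both rich in G and C and may overlap. A gene with several windows counted once but had more chances of a match. The 27025 genes with a window outnumber the 18415 tested and so include untested genes, while all 44 genes of the set were tested. Among the 17 genes with a window that were lower in Valine, 2 had a CArG box, 3 a CRE and 8 an EGR site, where the other 15 genes with a window had 1, 4 and 4. A match is a run of letters, and binding was not measured.

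**Figure D3:**
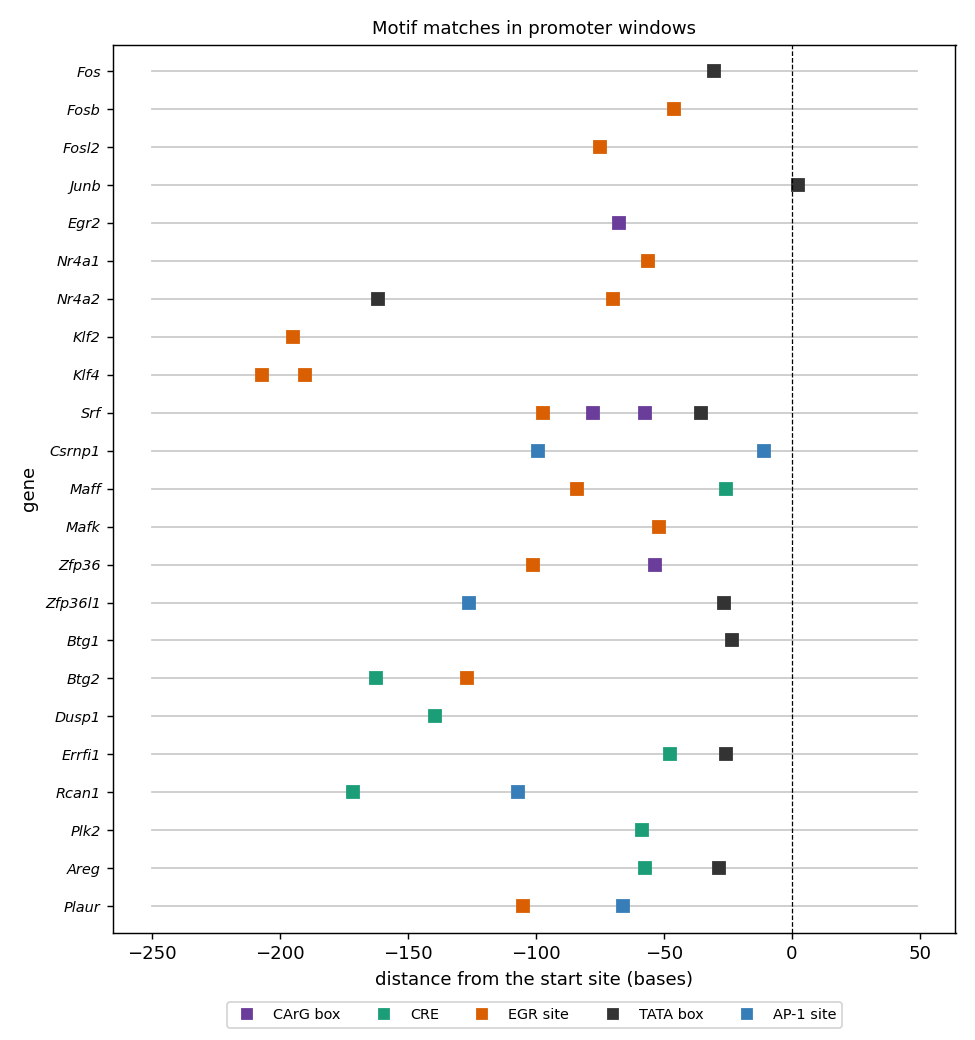
Matches to 5 motifs in the promoter windows of 23 of the 44 genes, drawn by distance in bases from the start site (dashed line at 0), with 1 window per gene, the one with the most matches. CArG boxes of Egr2, Srf and Zfp36 lie between positions -82 and -49, and the 7 CREs between positions -175 (Rcan1) and -22 (Maff).

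The 3′ ends carried the AU-rich pentamer ATTTA at a median of 2.61 copies per 1000 bases over the 44 genes, against 1.3 over 13213 genes tested with an annotated 3′ UTR. At least 3 copies were present in 27 of 44 genes (61.4%) and in 37.9% of those 13213 genes. The median was 2.61 for the 26 genes lower in Valine, 2.27 for the 5 higher and 2.64 for the 13 with no call. Areg was densest at 15.8 copies per 1000 bases, followed by Plk3 at 12.00 and Ier3 at 8.16. Arc, Ier2, Rcan1 and Trib1 had 0 copies. The 30-base stretches with most copies are given for 4 genes at the centre of the results, with ATTTA in capitals, and letters follow the transcript.
Areg chr5:91148369-91148398 (plus strand): ataATTTATTTAatATTTAagtgttATTTA
Plk3 chr4:117128712-117128741 (minus strand): cacttttATTTAttaacagacATTTATTTA
Fos chr12:85477090-85477119 (plus strand): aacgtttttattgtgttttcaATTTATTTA
Dusp1 chr17:26506167-26506196 (minus strand): ggctcatgggagctggtccttATTTATTTA
Gene bodies were short as well, with a median span of 7035 bases for the 44 genes and 23832 bases for 13380 protein-coding genes tested.

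Levels between genes are compared on the authors' deposited signal, which is scaled by gene length. In Control, Rhob was highest at a signal of 587 ± 38.04 (SD, n = 3), far above Jund at 166 ± 48.3 and Klf6 at 159 ± 2.77. Jund and Klf6 did not differ beyond their spread. The next 5 genes were Ier2, Plk2, Errfi1, Junb and Dusp1, whose mean signals ran from 116 down to 102, and neighbours among them did not differ beyond their spread either. Egr1 had a signal of 16.5 ± 1.13 and Fos 2.63 ± 0.256, and Nr4a3 was last at 0.125 ± 0.0779. Summed over the 44 genes, the libraries held 2967, 3630 and 3052 CPM in Val+PA, 2568, 2573 and 2575 CPM in Valine, and 3273, 3132 and 3337 CPM in Control. The 3 Valine sums lay below every other library, and Val+PA 2 was the highest of all. Without Rhob, the sums were 2196, 2506 and 2197 CPM in Val+PA, 1913, 1922 and 1916 CPM in Valine, and 2624, 2502 and 2587 CPM in Control.

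The FOS family, the partners of JUN proteins in AP-1, split. Fos (ENSMUSG00000021250, GRCm38 chromosome 12, 85473890 to 85477273, plus strand), the founding member, had 0.489, 0.256 and 0.68 CPM in Val+PA, 0.679, 0.32 and 0.41 CPM in Valine and 3.3, 2.64 and 3.14 CPM in Control. All Val+PA and Valine libraries lay far below Control, 6.3-fold lower in Val+PA and 6.36-fold lower in Valine. Fos fell in Val+PA against Control, with a log2 fold change of -2.66 ± 0.33 (edgeR adjusted p = 6.53e-05). For Valine, Fos gave -2.67 ± 0.33 (edgeR adjusted p = 5.85e-05). At these levels a Val+PA or Valine library held 8 to 25 counts of Fos. Fosl1, which in growing cells follows ERK activity, stood at 1.66, 1.86 and 1.79 CPM in Val+PA, 1.49, 1.66 and 0.997 CPM in Valine and 8.11, 7.17 and 5.2 CPM in Control. It fell by 1.95 and 2.303 on the log2 scale in Val+PA and in Valine against Control (edgeR adjusted p = 3.18e-05 and 9.8e-06).

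Fosb was low throughout, at 0.733, 0.737 and 0.556 CPM in Val+PA, 0.761, 0.262 and 0.322 CPM in Valine and 1.06, 1.06 and 1.09 CPM in Control. It fell in Valine (log2 fold change -1.24 ± 0.37, edgeR adjusted p = 0.0191), a call lost without Valine 2 (-0.96, edgeR adjusted p = 0.0792) or Valine 3 (-1.04, edgeR adjusted p = 0.0779), and was not called in Val+PA (edgeR adjusted p = 0.169). Fosl2, the most abundant FOS member in CPM, moved the other way, with 233 ± 19.9 CPM in Val+PA, 191 ± 5.53 CPM in Valine and 136 ± 3.74 CPM in Control (SD, n = 3 each). Its 3 groups did not overlap, and it rose in Val+PA (log2 fold change 0.78 ± 0.094, edgeR adjusted p = 4.9e-05) and in Valine (0.49 ± 0.094, edgeR adjusted p = 0.00128).

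Of the 3 JUN subunits 1 was called in each comparison, Jund higher in Val+PA and Junb lower in Valine. Jun, the founding member, had 79.02, 102 and 80.6 CPM in Val+PA, 74.7, 76.6 and 80.4 CPM in Valine and 80.8, 78.3 and 78.8 CPM in Control, and the groups overlapped apart from a single high library, Val+PA 2. Its log2 fold change was 0.14 ± 0.11 in Val+PA and -0.038 ± 0.11 in Valine against Control (edgeR adjusted p = 0.354 and 0.811). Junb, which restrains Jun in many cells, averaged 107 ± 15.9 CPM in Val+PA, 76.3 ± 2.12 CPM in Valine and 121 ± 27.8 CPM in Control (SD, n = 3 each). It fell in Valine (log2 fold change -0.67 ± 0.16, edgeR adjusted p = 0.00498) and was not called in Val+PA (edgeR adjusted p = 0.388). With a trend on GC content per library the Valine call ended (-0.46, edgeR adjusted p = 0.0527). Jund averaged 231 ± 63.5 CPM in Val+PA, 159 ± 11.8 CPM in Valine and 136 ± 43.98 CPM in Control (SD, n = 3 each), with Val+PA 2 and Control 3 highest in their groups, so that Val+PA and Control overlapped. It was called higher in Val+PA (log2 fold change 0.76 ± 0.22, edgeR adjusted p = 0.0152), and the call was lost without Val+PA 2 (0.53, edgeR adjusted p = 0.0577), without Control 1 (0.67, edgeR adjusted p = 0.0616) or without Control 2 (0.601, edgeR adjusted p = 0.0628). Without Control 3 Jund was also higher in Valine (0.52, edgeR adjusted p = 0.0459).

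**Figure D4:**
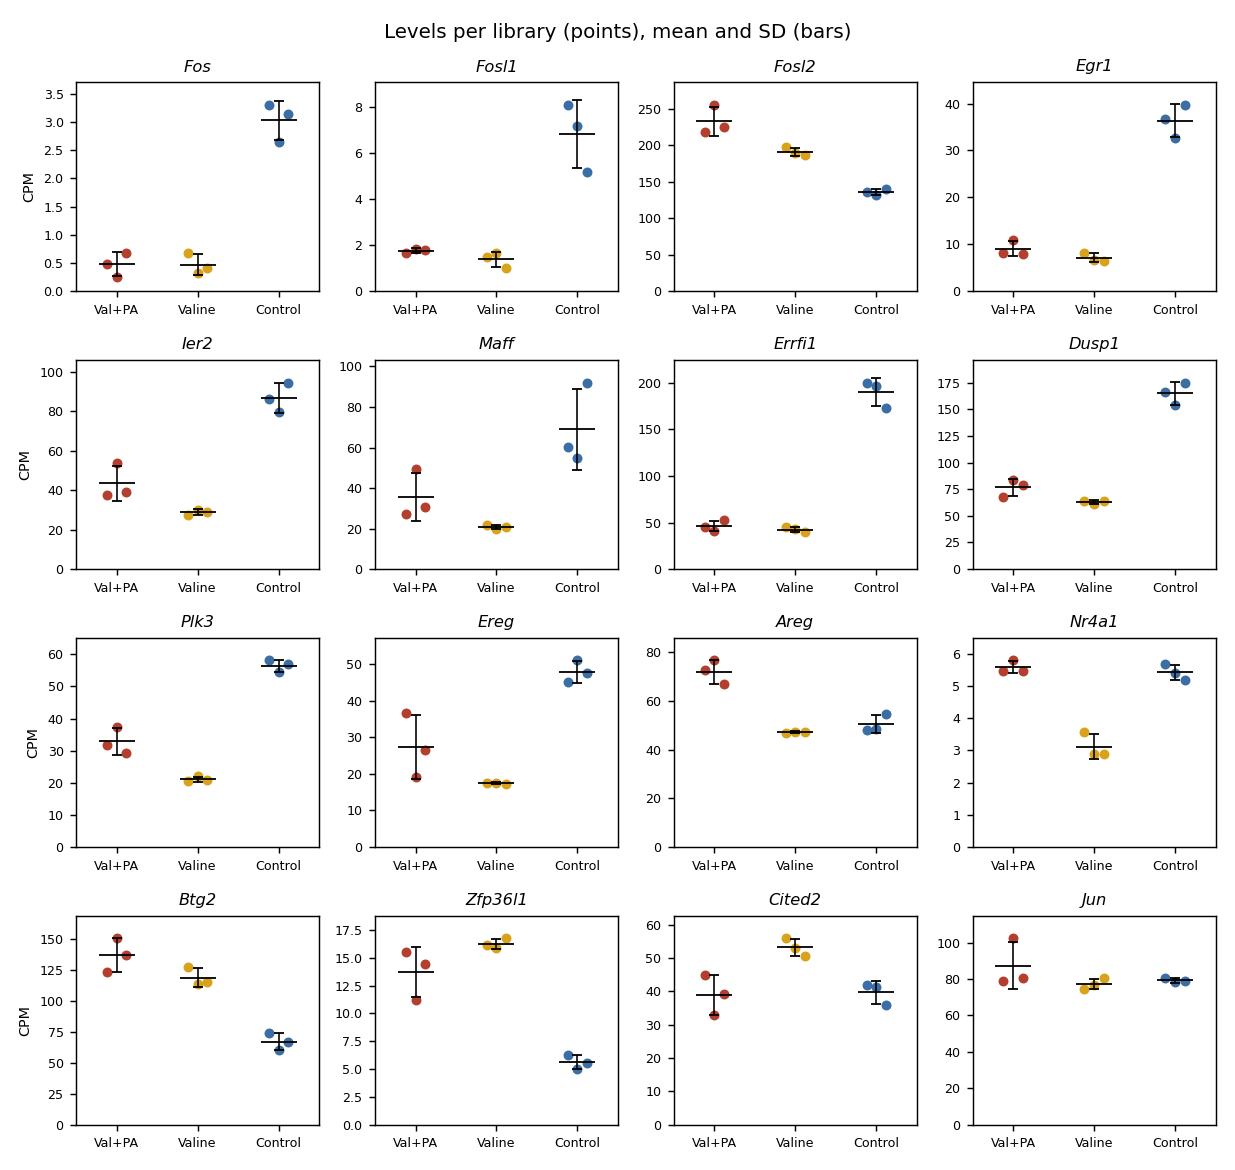
CPM of 16 genes in each library (points), with the group mean (wide bar) and SD (capped bar), and Val+PA left, Valine in the middle and Control right in each panel. Fos, Fosl1, Egr1, Errfi1 and Dusp1 are high in Control only, Ier2, Maff, Plk3 and Ereg are lowest in Valine with Val+PA in between, Areg is highest in Val+PA, and Btg2 and Zfp36l1 are lowest in Control.

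All 3 EGR zinc finger factors were lower in Valine, and 1 of them in Val+PA. Egr1, the serum-induced factor best known as a readout of ERK and SRF activity, had 8.25, 10.9 and 7.94 CPM in Val+PA, 8.21, 6.69 and 6.45 CPM in Valine and 36.7, 32.6 and 39.8 CPM in Control. Every Val+PA and Valine library lay far below the lowest Control library. Egr1 fell in Val+PA against Control, with a log2 fold change of -2.01 ± 0.16 (edgeR adjusted p = 1.66e-06). For Valine, Egr1 gave -2.35 ± 0.16 (edgeR adjusted p = 6.48e-07). Egr3 had 3.15, 4.04 and 2.13 CPM in Val+PA, 2.34, 1.92 and 1.5 CPM in Valine and 3.88, 4.56 and 4.79 CPM in Control. It fell in Valine (log2 fold change -1.196 ± 0.24, edgeR adjusted p = 0.00205), while Val+PA overlapped both other groups (-0.505 ± 0.24 against Control, edgeR adjusted p = 0.113), becoming lower without Val+PA 2 (-0.73, edgeR adjusted p = 0.0273). Egr2, whose CArG boxes are printed above, averaged 3.6 ± 0.0432 CPM in Val+PA, 2.49 ± 0.621 CPM in Valine and 4.79 ± 1.27 CPM in Control (SD, n = 3 each) and fell in Valine (log2 fold change -0.95 ± 0.23, edgeR adjusted p = 0.0056, and -0.42 ± 0.22, edgeR adjusted p = 0.163 in Val+PA).

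The NR4A orphan nuclear receptors, which act without a known ligand and respond to serum, calcium and cyclic AMP, were lower in Valine for 2 of 3 and not called in Val+PA. Nr4a1 had 5.48, 5.8 and 5.47 CPM in Val+PA, 3.59, 2.88 and 2.9 CPM in Valine and 5.67, 5.41 and 5.2 CPM in Control. The Valine libraries stood below all 6 others, which overlapped. Its log2 fold change was 0.04 ± 0.15 in Val+PA against Control (edgeR adjusted p = 0.852) and -0.796 ± 0.15 in Valine against Control (edgeR adjusted p = 0.00117). Nr4a2 averaged 5.69 ± 0.2 CPM in Val+PA, 4.98 ± 0.627 CPM in Valine and 7.12 ± 0.772 CPM in Control (SD, n = 3 each). It fell in Valine (log2 fold change -0.51 ± 0.15, edgeR adjusted p = 0.016), a call lost without Control 1 (-0.47, edgeR adjusted p = 0.0581), Valine 1 (-0.47, edgeR adjusted p = 0.0739) or Valine 3 (-0.45, edgeR adjusted p = 0.0763). Nr4a3 stayed under 1 CPM in every library and was not called.

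Of the 4 KLF zinc finger factors 3 were lower in Valine and 2 in Val+PA. Klf6, the most abundant of them in CPM, averaged 244 ± 20.1 CPM in Val+PA, 232 ± 2.68 CPM in Valine and 341 ± 8.28 CPM in Control (SD, n = 3 each), and every Val+PA and Valine library lay below Control. It fell by 0.48 in Val+PA (edgeR adjusted p = 0.0013) and by 0.56 in Valine (edgeR adjusted p = 0.000474) on the log2 scale. Klf2, a factor of quiescence and vessel biology, averaged 7.3 ± 1.1 CPM in Val+PA, 6.58 ± 0.272 CPM in Valine and 10.3 ± 1.08 CPM in Control (SD, n = 3 each). It fell in both (edgeR adjusted p = 0.0193 in Val+PA and 0.00433 in Valine), though the Val+PA call was lost without Control 3 (-0.40, edgeR adjusted p = 0.0515), Val+PA 1 (-0.40, edgeR adjusted p = 0.0693) or Val+PA 3 (-0.46, edgeR adjusted p = 0.066). Klf10, an early target of TGF-beta, had 99.5, 79.7 and 72.3 CPM in Val+PA, 61.9, 63.99 and 60.2 CPM in Valine and 88.01, 91.6 and 94.2 CPM in Control. Its Valine libraries were the lowest, and it fell in Valine (log2 fold change -0.56 ± 0.12, edgeR adjusted p = 0.0026) but was not called in Val+PA (edgeR adjusted p = 0.441). Klf4, a factor shared with stem cells, was not called in either comparison and averaged 34.7 ± 5.84 CPM in Val+PA, 33.05 ± 3.18 CPM in Valine and 33.5 ± 8.3 CPM in Control (SD, n = 3 each).

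Srf, the factor that binds the CArG boxes and whose own promoter carries 2 of them, averaged 30.96 ± 8.69 CPM in Val+PA, 31.3 ± 1.7 CPM in Valine and 56.7 ± 6.36 CPM in Control (SD, n = 3 each). Every Val+PA and Valine library lay below the lowest Control library, and the log2 fold change was -0.87 ± 0.17 in Val+PA (edgeR adjusted p = 0.00183) and -0.86 ± 0.17 in Valine (edgeR adjusted p = 0.00199). Myc, the growth regulator, had 17.4, 22.3 and 14.2 CPM in Val+PA, 13.3, 15.4 and 14.1 CPM in Valine and 19.9, 17.2 and 15.2 CPM in Control. The 3 groups overlapped and no change was called (0.042 ± 0.17, edgeR adjusted p = 0.864 in Val+PA, and -0.29 ± 0.17, edgeR adjusted p = 0.186 in Valine).

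Ier2, a nuclear immediate early protein, gave 37.4, 53.8 and 38.98 CPM in Val+PA, 27.2, 30.1 and 29.1 CPM in Valine and 86.3, 79.4 and 94.5 CPM in Control. The 3 groups did not overlap, with Val+PA between the others. Ier2 fell in Val+PA against Control, with a log2 fold change of -0.999 ± 0.14 (edgeR adjusted p = 0.000152). For Valine, Ier2 gave -1.59 ± 0.14 (edgeR adjusted p = 4.86e-06). Csrnp1, a nuclear protein induced by growth signals, had 19.5, 29.3 and 24.8 CPM in Val+PA, 15.3, 15.4 and 17.1 CPM in Valine and 26.4, 27.4 and 42.3 CPM in Control. Valine lay below every other library, and Csrnp1 fell in Valine (log2 fold change -1.002 ± 0.19, edgeR adjusted p = 0.0014) but was not called in Val+PA (edgeR adjusted p = 0.134).

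Cited2, a partner of the coactivators CBP and p300, was highest in Valine, with 38.95 ± 6.04 CPM in Val+PA, 53.1 ± 2.6 CPM in Valine and 39.7 ± 3.4 CPM in Control (SD, n = 3 each). It rose in Valine (log2 fold change 0.42 ± 0.13, edgeR adjusted p = 0.0182) and not in Val+PA (edgeR adjusted p = 0.889). The call was lost without Control 3 (0.36, edgeR adjusted p = 0.0504), Valine 1 (0.39, edgeR adjusted p = 0.0711) or Valine 2 (0.43, edgeR adjusted p = 0.0531). Ier5, an immediate early gene tied to the heat shock factor HSF1, averaged 143 ± 43.6 CPM in Val+PA, 88.8 ± 4.02 CPM in Valine and 87.7 ± 38.2 CPM in Control (SD, n = 3 each) and was spread widely in Val+PA and Control. Control 3 lay within the range of the Val+PA libraries. Ier5 was not called in Val+PA (log2 fold change 0.71 ± 0.27, edgeR adjusted p = 0.0515), but was higher without Control 3 (1.13, edgeR adjusted p = 0.00132) or Val+PA 1 (0.91, edgeR adjusted p = 0.0157).

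The small MAF proteins Maff and Mafk bind DNA but carry no activation domain, and pair with CNC factors such as NRF2. Maff, which has a CRE just before its start site, had 27.1, 49.1 and 30.4 CPM in Val+PA, 21.6, 19.7 and 20.9 CPM in Valine and 60.05, 54.99 and 92.03 CPM in Control. Control 3 was the highest library, and Valine lay below every other. Maff fell in Val+PA against Control, with a log2 fold change of -0.96 ± 0.23 (edgeR adjusted p = 0.0054). For Valine, Maff gave -1.73 ± 0.23 (edgeR adjusted p = 0.000106). Mafk had 8.06, 13.4 and 8.9 CPM in Val+PA, 6.28, 7.36 and 7.09 CPM in Valine and 14.5, 13.5 and 15.8 CPM in Control, with all Val+PA and Valine libraries below Control. It fell in Valine (log2 fold change -1.08 ± 0.18, edgeR adjusted p = 0.000605) and in Val+PA (-0.53 ± 0.18, edgeR adjusted p = 0.0367), where the call was lost without any 1 of Control 1, 2 or 3, Valine 1, 2 or 3, or Val+PA 1 or 3, at edgeR adjusted p = 0.0512 to 0.133.

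Of the 4 RNA decay and antiproliferative genes 2 rose in both comparisons and none fell. Zfp36l1 (ENSMUSG00000021127, GRCm38 chromosome 12, 80107754 to 80113013, minus strand), a relative of tristetraprolin that binds AU-rich elements, had 15.6, 11.2 and 14.4 CPM in Val+PA, 16.2, 15.9 and 16.7 CPM in Valine and 6.28, 5.01 and 5.56 CPM in Control. Every Val+PA and Valine library was above Control, 2.44-fold higher in Val+PA and 2.89-fold higher in Valine. Zfp36l1 rose in Val+PA against Control, with a log2 fold change of 1.29 ± 0.15 (edgeR adjusted p = 3.85e-05). For Valine, Zfp36l1 gave 1.53 ± 0.15 (edgeR adjusted p = 9.64e-06). Btg2, which slows the cell cycle and promotes removal of poly(A) tails, had 123, 150.3 and 137 CPM in Val+PA, 127, 113 and 115 CPM in Valine and 74.2, 60.5 and 66.5 CPM in Control. Btg2 rose in Val+PA against Control, with a log2 fold change of 1.03 ± 0.11 (edgeR adjusted p = 2.46e-05). For Valine, Btg2 gave 0.82 ± 0.11 (edgeR adjusted p = 0.000127). Both genes were above Control in all 6 libraries. Zfp36, tristetraprolin itself, averaged 2.84 ± 0.235 CPM in Val+PA, 2.65 ± 0.697 CPM in Valine and 2.92 ± 0.346 CPM in Control (SD, n = 3 each) and was not called. Btg1, the sister of Btg2, averaged 42.1 ± 4.5 CPM in Val+PA, 41.8 ± 0.958 CPM in Valine and 34.4 ± 4.51 CPM in Control (SD, n = 3 each) and missed the threshold in Val+PA (log2 fold change 0.29 ± 0.12, edgeR adjusted p = 0.0793) and in Valine (0.28 ± 0.12, edgeR adjusted p = 0.0863). It passed without Val+PA 2, in Val+PA (0.38, edgeR adjusted p = 0.0169) and in Valine (0.28, edgeR adjusted p = 0.0352).

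Of the 8 signal inhibitors and kinases 4 fell in Val+PA and 5 in Valine, and none rose. Errfi1 (ENSMUSG00000028967, GRCm38 chromosome 4, 150853919 to 150868892, plus strand), which binds and inhibits the EGF receptor, had 45.5, 40.8 and 52.3 CPM in Val+PA, 45.3, 42.7 and 39.5 CPM in Valine and 200.2, 197 and 173 CPM in Control. It stood 4.11-fold lower in Val+PA and 4.47-fold lower in Valine, and its Val+PA and Valine libraries overlapped. Errfi1 fell in Val+PA against Control, with a log2 fold change of -2.04 ± 0.12 (edgeR adjusted p = 2.38e-07). For Valine, Errfi1 gave -2.16 ± 0.12 (edgeR adjusted p = 1.36e-07). Dusp1 (ENSMUSG00000024190, GRCm38 chromosome 17, 26505590 to 26562128, minus strand), the nuclear phosphatase that switches off MAP kinases, had 67.8, 83.6 and 78.9 CPM in Val+PA, 63.6, 61.4 and 64.2 CPM in Valine and 166, 154 and 175 CPM in Control. The 6 Val+PA and Valine libraries were all below the lowest Control library. Dusp1 fell in Val+PA against Control, with a log2 fold change of -1.105 ± 0.10 (edgeR adjusted p = 7.07e-06). For Valine, Dusp1 gave -1.39 ± 0.11 (edgeR adjusted p = 1.44e-06). Errfi1 and Dusp1 carry a CRE in the promoter stretches printed above.

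Ier3, a survival regulator, had 26.1, 19.02 and 19.8 CPM in Val+PA, 17.01, 16.98 and 16.1 CPM in Valine and 44.7, 39.5 and 30.9 CPM in Control. All Val+PA and Valine libraries lay below Control, and it fell by 0.82 in Val+PA (edgeR adjusted p = 0.00131) and by 1.202 in Valine (edgeR adjusted p = 9.05e-05) on the log2 scale. Plk3, a polo-like kinase of stress and early growth responses, had 31.9, 37.5 and 29.2 CPM in Val+PA, 20.5, 21.98 and 20.9 CPM in Valine and 58.1, 54.5 and 56.99 CPM in Control. The groups did not overlap, and Val+PA took the middle place. Plk3 fell in Val+PA against Control, with a log2 fold change of -0.78 ± 0.11 (edgeR adjusted p = 0.000183). For Valine, Plk3 gave -1.42 ± 0.11 (edgeR adjusted p = 2.14e-06). Trib1, a pseudokinase that directs proteins to degradation, averaged 27.4 ± 4.79 CPM in Val+PA, 19.96 ± 0.79 CPM in Valine and 32.7 ± 1.99 CPM in Control (SD, n = 3 each) and fell in Valine (log2 fold change -0.71 ± 0.13, edgeR adjusted p = 0.00112). It was not called in Val+PA (-0.26 ± 0.13, edgeR adjusted p = 0.147) with all libraries, and was called lower without Val+PA 2 (-0.38, edgeR adjusted p = 0.0183) and with the GC trend (-0.32, edgeR adjusted p = 0.0138).

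The remaining inhibitors and kinases were not called. Sik1, a kinase that holds the CREB coactivators in the cytoplasm, averaged 6.51 ± 0.722 CPM in Val+PA, 7.12 ± 0.402 CPM in Valine and 8.27 ± 0.588 CPM in Control (SD, n = 3 each). Its log2 fold change was -0.35 ± 0.14 in Val+PA and -0.22 ± 0.14 in Valine (edgeR adjusted p = 0.0642 and 0.225), and it was called lower in Val+PA without Val+PA 2 (-0.44, edgeR adjusted p = 0.0179). Rcan1, the calcineurin inhibitor, averaged 90.1 ± 12.6 CPM in Val+PA, 77.2 ± 3.07 CPM in Valine and 72.2 ± 8.24 CPM in Control (SD, n = 3 each). It missed the threshold in Val+PA (0.32 ± 0.12, edgeR adjusted p = 0.0566) and in Valine (0.10 ± 0.12, edgeR adjusted p = 0.555), and was higher in Val+PA without Control 3 (0.42, edgeR adjusted p = 0.0189) or Val+PA 1 (0.42, edgeR adjusted p = 0.0175). Plk2, another polo-like kinase, averaged 191 ± 25.3 CPM in Val+PA, 218 ± 6.67 CPM in Valine and 245 ± 77.1 CPM in Control (SD, n = 3 each), where Control 3, at 156 CPM, was far below the other Control libraries, at 286 and 293 CPM. With all libraries neither change passed (-0.36 ± 0.20 in Val+PA and -0.17 ± 0.20 in Valine, edgeR adjusted p = 0.167 and 0.527). Without Control 3 it was lower in Val+PA (-0.601, edgeR adjusted p = 0.00132) and in Valine (-0.40, edgeR adjusted p = 0.0133).

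The 3 EGF receptor ligands of the set took different courses. Ereg, epiregulin, had 36.6, 19.1 and 26.4 CPM in Val+PA, 17.6, 17.6 and 17.1 CPM in Valine and 45.05, 50.95 and 47.6 CPM in Control. Valine libraries were lowest and nearly equal, and the Val+PA libraries spread between Valine and Control without reaching either. Ereg fell in Val+PA against Control, with a log2 fold change of -0.805 ± 0.18 (edgeR adjusted p = 0.00428). For Valine, Ereg gave -1.46 ± 0.19 (edgeR adjusted p = 7.52e-05). Areg (ENSMUSG00000029378, GRCm38 chromosome 5, 91139599 to 91148432, plus strand), amphiregulin, had 72.5, 76.6 and 66.9 CPM in Val+PA, 46.6, 47.3 and 47.4 CPM in Valine and 48.1, 48.4 and 54.6 CPM in Control. All 3 Val+PA libraries stood above all others, and all Valine libraries stood slightly below Control. Areg rose in Val+PA against Control (log2 fold change 0.52 ± 0.10, edgeR adjusted p = 0.0014) and was not called in Valine (-0.10 ± 0.10, edgeR adjusted p = 0.466). Hbegf, the heparin-binding ligand, averaged 29.4 ± 2.16 CPM in Val+PA, 23.2 ± 0.0953 CPM in Valine and 33.7 ± 7.83 CPM in Control (SD, n = 3 each). It fell in Valine (log2 fold change -0.54 ± 0.15, edgeR adjusted p = 0.0123) and was not called in Val+PA (edgeR adjusted p = 0.327). Plaur, the receptor of the protease urokinase, averaged 72.5 ± 13.4 CPM in Val+PA, 58.2 ± 0.841 CPM in Valine and 91.4 ± 4.79 CPM in Control (SD, n = 3 each) and fell in Valine (log2 fold change -0.65 ± 0.12, edgeR adjusted p = 0.00127). In Val+PA it was just past the threshold (-0.33 ± 0.12, edgeR adjusted p = 0.049) and the call was lost without any 1 library other than Val+PA 2, at edgeR adjusted p = 0.0553 to 0.18.

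Arc, a cytoskeleton-associated gene known mainly from neurons, had 0.489, 0.512 and 0.464 CPM in Val+PA, 0.272, 0.552 and 0.645 CPM in Valine and 2.6, 2.89 and 2.9 CPM in Control. Its Val+PA and Valine libraries were below Control without exception. Arc fell in Val+PA against Control, with a log2 fold change of -2.51 ± 0.28 (edgeR adjusted p = 2.93e-05). For Valine, Arc gave -2.51 ± 0.28 (edgeR adjusted p = 2.73e-05). Rhob, an endosomal GTPase, had 771, 1124 and 855 CPM in Val+PA, 655, 651 and 659 CPM in Valine and 649, 630.3 and 749.7 CPM in Control. It rose in Val+PA (log2 fold change 0.44 ± 0.13, edgeR adjusted p = 0.0202), with Val+PA 2 highest, and was not called in Valine (-0.046 ± 0.13, edgeR adjusted p = 0.806). The Rhob call was lost without Control 1 (0.41, edgeR adjusted p = 0.0681) or Control 2 (0.39, edgeR adjusted p = 0.076). Gem, a small GTP-binding protein that inhibits calcium channels, averaged 6.7 ± 0.788 CPM in Val+PA, 6.09 ± 0.559 CPM in Valine and 4.5 ± 0.363 CPM in Control (SD, n = 3 each). It rose in Val+PA (log2 fold change 0.57 ± 0.15, edgeR adjusted p = 0.01) and in Valine (0.44 ± 0.15, edgeR adjusted p = 0.0367), the Valine call being lost without any 1 of Control 1, 2 or 3 or Valine 1 or 2, at edgeR adjusted p up to 0.136.

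The genes whose levels ran most like those of Fos over the 9 libraries, by Pearson's r of log2 CPM among the 44, were Errfi1 (r = 0.983), Klf6 (0.967) and Egr1 (0.951). Those most like Egr1 were Dusp1 (0.99), Errfi1 (0.972) and Fosl1 (0.965). The coefficients describe 9 libraries in 3 groups, within which every gene shares the depth and scaling of its library, and no p is given.

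The third comparison set Val+PA against Valine, the groups with and without palmitic acid, which also differed in plate and in the stated hours of valine (24 and 36), so that these cannot be told apart from the fatty acid. No gene passed the test in either direction, among the 44 or among all 18415 genes tested (0% higher and 0% lower, lowest edgeR adjusted p = 0.168). At an unadjusted p under 0.05 there were 22 of the 44 genes and 2428 of all genes. Of the 44 log2 fold changes 39 were above 0, where 9331 of all 18415 genes tested were. The median was 0.34 over the 44 genes against 0.0044 over all genes tested. All 44 values come from the same libraries, so the 39 are not separate observations. In 21 of the 44 genes the 3 Val+PA libraries lay above all 3 Valine libraries, where 12.6% of all genes did, and in 2 genes, Cited2 and Zfp36l1, they lay below, where 12% of all genes did.

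By size of p, Areg came first with a log2 fold change of 0.61 ± 0.10, followed by Plk3 at 0.64 ± 0.11 and Nr4a1 at 0.84 ± 0.15, each with edgeR adjusted p = 0.168. Ier2 (0.59 ± 0.14, edgeR adjusted p = 0.201), Klf10 (0.43 ± 0.12, edgeR adjusted p = 0.251) and Rhob (0.48 ± 0.13, edgeR adjusted p = 0.251) completed the 6 lowest. In all 6 the Val+PA libraries were above the Valine libraries without overlap. This adds no separate evidence, since the 6 were picked by their p in the same libraries. The 4 ligand and receptor genes, Hbegf, Areg, Ereg and Plaur, were each higher in all Val+PA than in all Valine libraries, where 12.6% of all genes were. None of the 4 was called. Val+PA also lay above Valine without overlap in 2 of 2 small MAF genes, 2 of 3 JUN genes and 2 of 3 NR4A genes. So it did in 3 of 6 SRF, MYC and other nuclear factors and in 4 of 8 signal inhibitors and kinases. The count was 1 of 3 for EGR genes, 1 of 3 for GTPase and cytoskeletal genes, 1 of 4 for FOS genes and 1 of 4 for KLF genes. Of the RNA decay and antiproliferative genes it was 0 of 4.

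**Figure D5:**
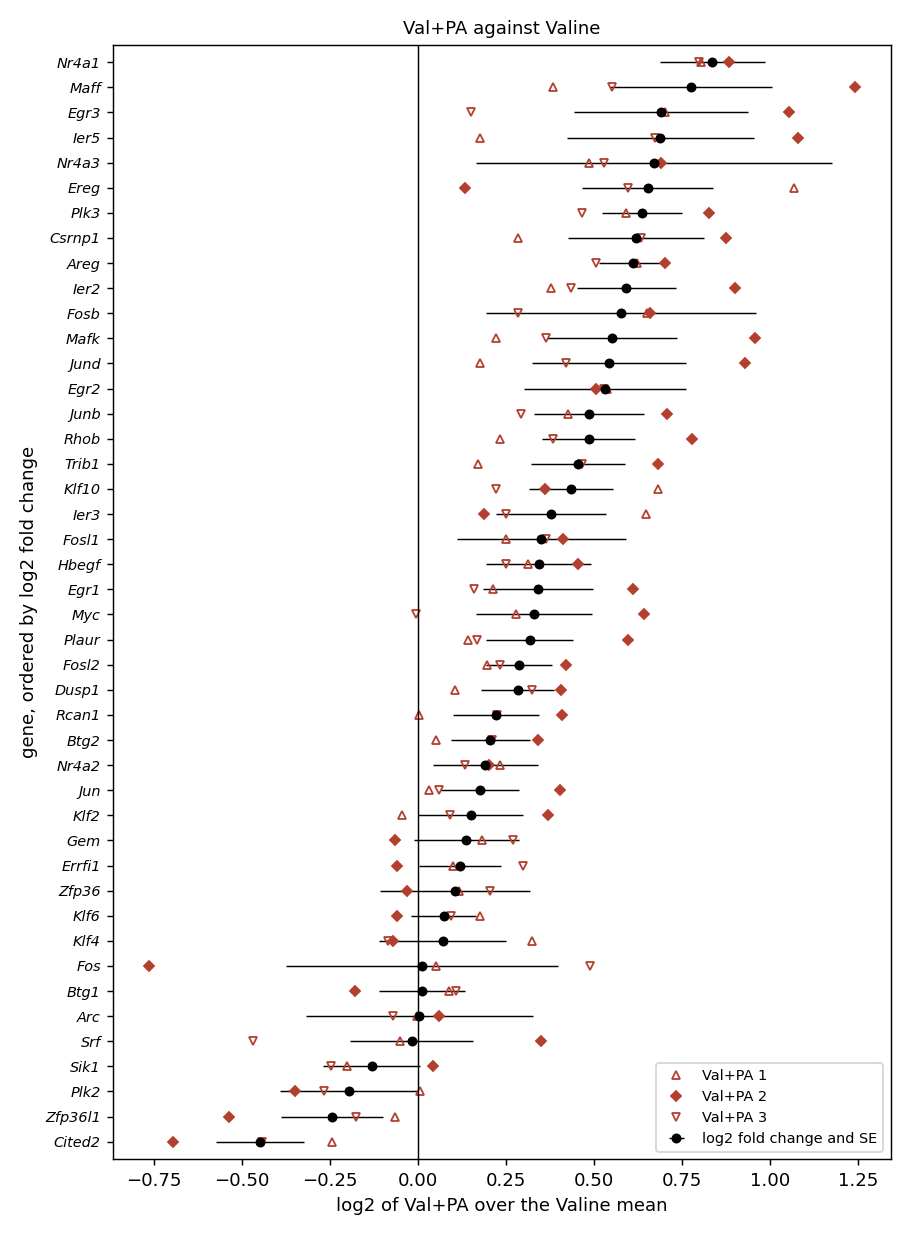
Log2 fold change of Val+PA against Valine for each of the 44 genes (black dots, bars for the SE), ordered by size, with the log2 ratio of each Val+PA library to the Valine mean after adding 0.05 CPM (red symbols). Of the 44 dots 39 lie right of 0, Val+PA 2 (filled diamonds) is farthest right for many genes, and Cited2 and Zfp36l1 lie left of 0 in all 3 libraries.

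Val+PA 2 was the highest library of its group for 29 of the 44 genes. It also read high for genes rich in G and C: over 784 genes of at least 60% GC the median log2 deviation from the mean of all libraries was 0.481 in Val+PA 2, 0.248 in Control 3, -0.208 to -0.154 in Valine and -0.119 to 0.0309 in the other 4 libraries. The 44 genes had a median GC content of 54.3%, against 49.2% over all genes tested. With Val+PA 2 left out, 38 of the 44 changes stayed above 0 with a median of 0.26, and with a trend on GC content fitted per library 34 stayed above 0 with a median of 0.20. Without Val+PA 2 alone, or without Control 3 alone, 0 of the 44 genes were called. These libraries had deviated most from their own groups in the same data, so calls made without both add no separate evidence. When Val+PA 2 and Control 3 were left out together, 12 of the 44 genes were called higher, where 1.66% of all genes were, and 1, Cited2, lower, where 1.55% were. Those 12 were Areg (0.56, edgeR adjusted p = 0.000503), Plk3 (0.53, edgeR adjusted p = 0.00244), Nr4a1 (0.81, edgeR adjusted p = 0.00859), Ereg (0.85, edgeR adjusted p = 0.00132), Ier2, Maff, Rhob, Klf10, Csrnp1, Junb, Ier3 and Ier5. Areg was called higher as well by DESeq2 (adjusted p = 4.29e-05) and with the GC trend (0.63, edgeR adjusted p = 0.0277).

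Other parts of the same pathways were read from lists, each given by how many genes passed the test, beside the 20.4% higher and 18.8% lower of all genes in Val+PA and the 20.8% and 21.1% in Valine. Of 15 ERK feedback genes, the Sprouty, Spred and dual-specificity phosphatase families, 4 were higher and 5 lower in Val+PA, and 3 higher and 6 lower in Valine. Spry4, which is induced by ERK and inhibits it, averaged 2.36 ± 0.24 CPM in Val+PA against 12.5 ± 1.81 CPM in Control (log2 fold change -2.404 ± 0.17, edgeR adjusted p = 1e-06), and 1.57 ± 0.231 CPM in Valine against 12.5 ± 1.81 CPM in Control (log2 fold change -2.98 ± 0.18, edgeR adjusted p = 3.04e-07). Dusp2 averaged 17.03 ± 4.41 CPM in Val+PA against 8.61 ± 4.22 CPM in Control (log2 fold change 0.99 ± 0.28, edgeR adjusted p = 0.0152), and Dusp16 122 ± 2.94 CPM in Valine against 82.4 ± 8.04 CPM in Control (log2 fold change 0.57 ± 0.10, edgeR adjusted p = 0.000622). Of 6 SRF coactivators and ternary complex factors 1 was higher and 2 lower in both comparisons, among them Elk1, a ternary complex factor, with 18.1 ± 1.75 CPM in Val+PA against 26.2 ± 0.286 CPM in Control (log2 fold change -0.54 ± 0.11, edgeR adjusted p = 0.0021), and Mrtfa with 17.3 ± 0.66 CPM in Valine against 25.5 ± 2.77 CPM in Control (log2 fold change -0.56 ± 0.15, edgeR adjusted p = 0.0114). The SRF cofactor called higher in each comparison averaged under 1 CPM over the libraries and is therefore not named. The highest log2 fold change of that list was 1.3 in Val+PA and 1.48 in Valine. The 19 cytoskeletal targets of MRTF and YAP gave 2 higher and 9 lower in Val+PA and likewise in Valine. Ccn1, a matricellular protein and a classical serum response gene, averaged 34.7 ± 4.03 CPM in Val+PA against 114 ± 16.4 CPM in Control (log2 fold change -1.72 ± 0.13, edgeR adjusted p = 1.26e-06), and 31.8 ± 0.268 CPM in Valine against 114 ± 16.4 CPM in Control (log2 fold change -1.84 ± 0.13, edgeR adjusted p = 8.2e-07). Zyx, zyxin, rose to 143 ± 29.4 CPM in Val+PA against 89.2 ± 8.26 CPM in Control (log2 fold change 0.68 ± 0.14, edgeR adjusted p = 0.0019), and Filip1l to 97.8 ± 16.8 CPM in Valine against 40.9 ± 16.6 CPM in Control (log2 fold change 1.25 ± 0.29, edgeR adjusted p = 0.0046).

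Among relatives of the AP-1 subunits, of which 6 of 10 passed the filter, Atf3, a stress-induced factor, rose to 80.4 ± 14.7 CPM in Val+PA against 25.3 ± 2.63 CPM in Control (log2 fold change 1.67 ± 0.14, edgeR adjusted p = 2.62e-06), and to 52.6 ± 3.21 CPM in Valine against 25.3 ± 2.63 CPM in Control (log2 fold change 1.05 ± 0.14, edgeR adjusted p = 8.37e-05). Mafg, the third small MAF protein, averaged 52.5 ± 0.708 CPM in Valine against 75.98 ± 17.7 CPM in Control (log2 fold change -0.53 ± 0.17, edgeR adjusted p = 0.023), so that 1 relative was higher and 0 lower in Val+PA, and 1 higher and 1 lower in Valine. No EGR corepressor was called among the 2 of 3 tested. In the MYC network, with 9 of 10 tested, 3 genes were higher and 3 lower in both comparisons, led by Mycl with 31.5 ± 7.45 CPM in Val+PA against 6.38 ± 0.39 CPM in Control (log2 fold change 2.300 ± 0.18, edgeR adjusted p = 1.82e-06), and 38.8 ± 5.14 CPM in Valine against 6.38 ± 0.39 CPM in Control (log2 fold change 2.603 ± 0.18, edgeR adjusted p = 8.28e-07). Mxd3, a MAX partner that opposes MYC, averaged 4.8 ± 1.1 CPM in Val+PA against 12.9 ± 0.942 CPM in Control (log2 fold change -1.43 ± 0.19, edgeR adjusted p = 0.000106), and 5.73 ± 1.08 CPM in Valine against 12.9 ± 0.942 CPM in Control (log2 fold change -1.17 ± 0.19, edgeR adjusted p = 0.000392).

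Of 7 ERBB receptor and ligand genes tested out of 9, 2 were higher and 1 lower in Val+PA and 1 higher and 1 lower in Valine. The ligand Nrg1 averaged 43.02 ± 2.88 CPM in Val+PA against 27.6 ± 0.729 CPM in Control (log2 fold change 0.64 ± 0.10, edgeR adjusted p = 0.000352), and 42.6 ± 2.17 CPM in Valine against 27.6 ± 0.729 CPM in Control (log2 fold change 0.63 ± 0.10, edgeR adjusted p = 0.000391). Tgfa, another EGF receptor ligand, averaged 1.78 ± 0.271 CPM in Val+PA against 2.88 ± 0.196 CPM in Control (log2 fold change -0.698 ± 0.19, edgeR adjusted p = 0.0108), and 1.35 ± 0.0105 CPM in Valine against 2.88 ± 0.196 CPM in Control (log2 fold change -1.09 ± 0.19, edgeR adjusted p = 0.000711). Of 6 CREB factors and coactivators 2 were lower and 0 higher in each comparison, and Atf1, a relative of CREB, fell most. It averaged 25.5 ± 2.54 CPM in Val+PA against 44.3 ± 1.44 CPM in Control (log2 fold change -0.796 ± 0.11, edgeR adjusted p = 0.000111), and 27.00 ± 0.877 CPM in Valine against 44.3 ± 1.44 CPM in Control (log2 fold change -0.71 ± 0.11, edgeR adjusted p = 0.000232).

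A further 21 early response genes outside the set gave 5 higher and 6 lower in Val+PA, and 3 higher and 9 lower in Valine. Il6, a cytokine, averaged 4.3 ± 2.26 CPM in Val+PA against 0.989 ± 0.0915 CPM in Control (log2 fold change 2.12 ± 0.38, edgeR adjusted p = 0.00088), and 3.7 ± 0.226 CPM in Valine against 0.989 ± 0.0915 CPM in Control (log2 fold change 1.897 ± 0.38, edgeR adjusted p = 0.00183). Ccl2, a chemokine, averaged 3.72 ± 1.42 CPM in Val+PA against 10.8 ± 3.48 CPM in Control (log2 fold change -1.53 ± 0.29, edgeR adjusted p = 0.00138), and 3.24 ± 0.58 CPM in Valine against 10.8 ± 3.48 CPM in Control (log2 fold change -1.74 ± 0.30, edgeR adjusted p = 0.000589). Ptgs2, the inducible cyclooxygenase, was picked after its values were seen, since it was called in both directions. It had 182, 102 and 111 CPM in Val+PA, 60 to 65.7 CPM in Valine and 96.3, 101 and 76.7 CPM in Control, and Val+PA lay above both other groups. It was higher in Val+PA against Control (log2 fold change 0.52 ± 0.19, edgeR adjusted p = 0.0464) and lower in Valine against Control (-0.52 ± 0.19, edgeR adjusted p = 0.0456), and the direct comparison of Val+PA with Valine gave 1.05 ± 0.19 (edgeR adjusted p = 0.168). No list gave a called gene in Val+PA against Valine.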

How the data were processed

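The 44 genes, the gene lists and the alternatives were chosen with earlier results of these data known, so no count here is independent of them. RNA was taken from C2C12 wells, and strand-specific libraries were read from both ends by Illumina sequencing, per the labels' protocols. The submitters' processing notes name HISAT2, featureCounts, DESeq2 and GRCm38, with no versions. Strand setting and annotation release were not stated there, so overlapping antisense genes and near-identical copies are uncertain. The deposited counts are whole reads for each gene, before any normalization. The deposited signal table, made by the authors, equals the count times a gene factor and a library factor, and the gene factor was 1 over the exon length within 0.1% for 98.1% of 9206 genes checked.

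Symbols and coordinates came from GENCODE M21 on GRCm38, which named 52147 IDs (97.1%), and promoters from RefSeq on GRCm38.p6. Column codes of the 3 Val+PA libraries lack a letter that the labels carry, and were matched by the rest. Counts passing filterByExpr were scaled by TMM and modelled in R 4.3.3 with edgeR 4.0.16 (quasi-likelihood, group means, 9 libraries, 6 residual degrees of freedom), with two-sided tests adjusted by Benjamini-Hochberg over 18415 genes at 0.05. SE is the absolute log2 fold change over the square root of F. Values per library are given for genes called at a log2 fold change of 1 or more against Control, for the 6 smallest p between Val+PA and Valine, and for Fos, Egr1, Jun and Myc. From lists, the called gene with the largest rise and fall and a mean of at least 1 CPM is named. Alternatives were DESeq2 1.42.0, limma 3.58.1 voom, other scalings and filters, 2 groups alone, a replicate block, a threshold of 0.01, limma on log2 signal plus 1 or 0.1, leaving out libraries, and, added after the data were seen, a GC trend per library. The method was tested on simulated counts, with changed genes of at least 1 CPM. At 2-fold it recovered 86 of 100 in Val+PA against Control, 74 in Valine against Control and 81 in Val+PA against Valine. At 3-fold these were 97, 99 and 96, and 4, 11 and 13 unchanged genes were called. Smaller changes were not simulated, nor were deviations of a whole library such as Val+PA 2 or Control 3. The simulated comparisons also held far fewer changed genes than were called against Control. Recovery in the real data may therefore differ, and these shares do not give the power behind the absence of calls in Val+PA against Valine.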

Additional observations from a re-analysis of the deposited data

Results flagged for a closer look

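Areg, the gene of the EGF receptor ligand amphiregulin, lay above every Control library in all 3 Val+PA libraries and below every Control library in all 3 Valine libraries. Its log2 fold change was 0.61 ± 0.10 in Val+PA against Valine (edgeR adjusted p = 0.168), which did not pass the threshold, with Val+PA higher in 3 of 3 libraries. Against Control it was 0.52 ± 0.10 in Val+PA and -0.10 ± 0.10 in Valine (edgeR adjusted p = 0.0014 and 0.466). Over 23 alternatives the log2 fold change of Val+PA against Valine ran from 0.56 to 0.66, and it passed the threshold in 4 of them.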

How the results depend on the processing

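No called change of a gene turned round under any of 23 alternatives. In Val+PA against Control 17 of 23 called genes, and in Valine against Control 25 of 31, were called under every alternative, and 10 and 6 uncalled genes were called under at least 1. Lower genes numbered 13 to 23 in Val+PA, beside 16, and 23 to 28 in Valine, beside 26. Higher genes, 7 in Val+PA and 5 in Valine, numbered 4 and 3 at an adjusted p below 0.01, and 9 in Valine without Control 3 and Val+PA 2. Leaving out 1 library gave 5 to 9 higher genes in Val+PA and 3 to 6 in Valine, the 3 without Valine 1 or Valine 2. For Val+PA against Valine, where the test called 0, higher genes were 4 with DESeq2, 2 with the GC trend, 12 with no filter and 12 without Control 3 and Val+PA 2, which also gave 1 lower gene, and the cause was not tested. The median log2 fold change there was 0.34, and 0.20 with the GC trend. Over all genes these gave 132 higher and 80 lower with DESeq2, 5 and 2 with the GC trend, 476 and 287 with no filter, and 312 and 292 without both libraries. Leaving out 1 library gave 0 called genes there each time.

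Same-numbered libraries did not deviate together (correlations of -0.409 to 0.238), so the numbers were not taken as pairs. With a replicate block, Val+PA against Control gave 8 higher and 15 lower genes, Valine against Control 4 and 26, and Val+PA against Valine 0 and 0. Under other scalings the median log2 fold change of all genes lay between -0.030 and 0.068 over the 3 comparisons. Genes under 1 CPM, such as Fos in Val+PA and Valine and Nr4a3 in all groups, rest on few counts, which limits their precision.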
